A study of Mus musculus with 4 samples.

Results

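The regions described here are 1183 Gata4 binding peaks of *Dnmt3a*-/-*Dnmt3b*-/- double-knockout (DKO) mesoderm cells. All were rich in CpG dinucleotides, lay away from the listed gene starts and had no peak called close by in wild-type (WT) cells. They were chosen by 3 values of the deposited peak lists: no WT peak lay within 500 bp of the peak position, no listed RefSeq gene start lay within 1000 bp, and the deposited window, 250 bp to either side of the position, held 20 or more CpGs. They made up 1183 of the 22733 peaks of the DKO list, and the DKO and WT lists held 43143 peaks together. Gata4 was measured by chromatin immunoprecipitation and sequencing (ChIP-seq) in 4 libraries, 1 per condition, so no value below has an error between replicates. Intervals are 95% Wilson intervals for shares, Newcombe intervals for differences of shares and binomial intervals for medians, and they cover counting error within these libraries only. They treat peaks as independent and may be too narrow, since 324 of the 1183 lay within 1000 bp of another of them. The lists do not give the number of reads behind a height. The study's methods give more mapped reads for the DKO than for the WT Flk1(+) library and none for the ES libraries, and the part of this difference in the peaks called in DKO cells alone was not tested.

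The groups were WT Flk1(+) cells, DKO Flk1(+) cells, WT ES cells and DKO ES cells, all from J1 mouse embryonic stem (ES) cells of 129 background. The Flk1(+) samples came from 1 clone per genotype, labelled J1G4.2 for WT and 16G4.3 for DKO, so genotype and clone cannot be told apart. Both genotypes carried Gata4GR, Gata4 joined to the part of the human glucocorticoid receptor that binds dexamethasone (Dex), expressed from the ubiquitous CAG promoter and active once Dex is added. Cells were differentiated on OP9 stroma until day 4.5, received 100 nM Dex for 3 hours and were sorted for Flk1 with magnetic beads. The undifferentiated ES libraries received no Dex and served as the background of the same genotype, and all libraries were precipitated with a mixture of 3 Gata4 antibodies. The lists hold no expression values, so the Flk1(+) identity of the cells could not be checked against markers.

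CpG islands are stretches of DNA that keep a high density of CpG dinucleotides and are mostly free of methylation in normal cells. Most lie at gene starts, but many lie inside genes or between them, where they are called intragenic or orphan islands and are methylated more often than promoter islands. Dnmt3a and Dnmt3b methylate previously unmethylated CpGs as cells differentiate, and Gata4 is a zinc-finger transcription factor of endoderm and heart that recognises WGATAA, where W is A or T.

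The sequences of 7 of the peaks show the range of GATA motifs found, from 1 copy near the peak position to a repeat. Letters are the forward strand of mm9, and capitals mark AGATAA or TGATAA on the forward strand or, as TTATCT or TTATCA, on the reverse strand. The peak 51319 bp upstream of *Txndc5*, a disulphide isomerase gene, is chr13:38671909-38672075, and that in a coding exon of *Klk15*, a kallikrein protease gene, is chr7:51193835-51193964. Those near *Klf15* and *Hand2*, transcription factor genes, are chr6:90413582-90413702 (intron) and chr8:59807317-59807437 (downstream of the gene). The peak 3097 bp upstream of *Gata2*, a blood progenitor transcription factor gene, is chr6:88140676-88140920, and those in introns of *Nceh1*, a lipid hydrolase gene, and *Mpdz*, a scaffold protein gene, are chr3:27182297-27182420 and chr4:81042419-81042645.
Txndc5: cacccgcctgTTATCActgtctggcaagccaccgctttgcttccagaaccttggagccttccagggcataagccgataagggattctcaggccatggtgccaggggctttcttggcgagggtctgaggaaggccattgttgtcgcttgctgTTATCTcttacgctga
Klk15: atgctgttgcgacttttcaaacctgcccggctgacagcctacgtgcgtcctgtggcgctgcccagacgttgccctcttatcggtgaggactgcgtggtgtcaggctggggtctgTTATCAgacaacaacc
Klf15: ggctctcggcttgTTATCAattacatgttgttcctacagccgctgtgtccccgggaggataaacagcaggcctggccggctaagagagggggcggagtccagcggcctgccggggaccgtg
Hand2: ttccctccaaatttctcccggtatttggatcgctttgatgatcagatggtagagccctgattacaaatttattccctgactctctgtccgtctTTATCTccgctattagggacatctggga
Gata2: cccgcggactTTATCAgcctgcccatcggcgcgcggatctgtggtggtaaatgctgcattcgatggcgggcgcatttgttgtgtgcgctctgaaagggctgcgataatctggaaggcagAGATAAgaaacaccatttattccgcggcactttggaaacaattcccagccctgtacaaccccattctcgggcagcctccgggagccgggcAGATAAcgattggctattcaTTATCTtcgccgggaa
Nceh1: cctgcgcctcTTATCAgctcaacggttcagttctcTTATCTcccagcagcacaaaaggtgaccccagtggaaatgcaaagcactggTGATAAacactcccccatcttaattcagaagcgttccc
Mpdz: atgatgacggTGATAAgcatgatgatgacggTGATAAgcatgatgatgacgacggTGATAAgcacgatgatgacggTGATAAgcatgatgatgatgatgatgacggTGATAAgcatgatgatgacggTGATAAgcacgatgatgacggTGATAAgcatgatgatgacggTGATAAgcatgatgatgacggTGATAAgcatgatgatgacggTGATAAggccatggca

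The copies lay within 60 bp of the position at *Klf15* and *Hand2*, whereas *Gata2* held 4 copies spread over the stretch shown and the 10 copies of *Mpdz* belonged to a tandem repeat that makes up 44.1% of its window as marked repeat. *Klk15* held a further copy outside the stretch printed.

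Each of the next 6 stretches is from the region with most CpGs at its gene, had no WGATAA in its window and shows the CpG density that the selection required, with every CpG in capitals. They lie 354241 bp from the nearest annotated start (chr7:78850552-78850672, named here by the nearest coding gene, Gm10295), 16696 bp upstream of *Chd2*, a chromatin remodeller gene (chr7:80703268-80703388), in an intron of *Lhx6* (chr2:35946950-35947070) and a coding exon of *Six3* (chr17:86023098-86023218), both homeobox genes, in a coding exon of the proneural gene *Neurog2* (chr3:127337134-127337254), and 1151 bp upstream of *Fat4*, a giant cadherin gene, in the non-coding gene C230034O21Rik (chr3:38784651-38784771).
Gm10295: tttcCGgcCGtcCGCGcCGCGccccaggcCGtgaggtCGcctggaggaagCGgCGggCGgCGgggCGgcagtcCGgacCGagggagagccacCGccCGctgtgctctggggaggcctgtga
Chd2: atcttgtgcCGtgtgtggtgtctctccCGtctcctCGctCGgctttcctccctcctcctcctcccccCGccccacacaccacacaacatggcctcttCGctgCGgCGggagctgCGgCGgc
Lhx6: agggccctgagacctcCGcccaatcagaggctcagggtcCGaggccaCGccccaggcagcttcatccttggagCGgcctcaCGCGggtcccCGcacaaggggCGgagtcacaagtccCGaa
Six3: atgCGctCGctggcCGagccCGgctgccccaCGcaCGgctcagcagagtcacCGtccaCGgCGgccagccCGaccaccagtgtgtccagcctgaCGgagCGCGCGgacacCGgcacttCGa
Neurog2: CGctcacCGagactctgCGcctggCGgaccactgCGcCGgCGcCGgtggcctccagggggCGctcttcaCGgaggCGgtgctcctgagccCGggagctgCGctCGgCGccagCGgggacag
Fat4: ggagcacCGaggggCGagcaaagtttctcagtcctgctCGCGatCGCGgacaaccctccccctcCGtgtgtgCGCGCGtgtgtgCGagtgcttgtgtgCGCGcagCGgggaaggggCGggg

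Among all DKO peaks, 54.9% had no WT peak within 500 bp, and among the 1803 DKO peaks with 20 or more CpGs away from listed starts the share was 65.6% (63.4 to 67.8%), which is the count that defines the 1183. These shares are a description of the selection and carry no test. Away from listed starts the share without a WT peak was 50.3% (49.2 to 51.4%) at 0 to 9 CpGs, 62.3% (60.4 to 64.1%) at 10 to 19 and 67.9% (61.8 to 73.4%) at 50 or more, so most of the step lay below the limit of 20 CpGs. At listed starts, CpG-rich DKO peaks lacked a WT peak in 53.8% (52.8 to 54.7%), below the peaks away from starts. In the other direction, 344 of the 875 CpG-rich WT peaks away from listed starts (39.3%, 36.1 to 42.6%) had no DKO peak within 500 bp. That share was 54.4% (53.7 to 55.1%) over all WT peaks. It was 66.0% in CpG-poor WT peaks away from listed starts and 22.4% in CpG-rich WT peaks at them.

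The limits cut through a continuous range. The WT peaks nearest to the regions were 507, 509 and 516 bp away, and the nearest peaks that were left out had one at 499, 498 and 492 bp. The smallest distance to a listed start inside was 1001 bp and the largest outside was 1000 bp. There were 60 regions with exactly 20 CpGs and 76 peaks that met the other criteria with 19. A WT peak lay more than 500 but at most 1000 bp from 80 regions and within 2000 bp of 206 (17.4%), whereas 721 (60.9%) had none within 10 kb and 137 (11.6%) none within 100 kb, with a median distance of 17696 bp.

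Heights in the DKO Flk1(+) library, in the units of the authors' read density profile, had a median of 6.46 (6.34 to 6.61), quartiles of 5.62 and 8.15 and a range of 5.00 to 25.6, against a calling limit of 5. The height in the DKO ES library at the same positions had a median of 1.71, and the ratio of the 2 heights a median of 3.75 against a calling limit of 3. In the 620 CpG-rich DKO peaks away from listed starts that did have a WT peak, called shared below, the median height was 7.89 (7.62 to 8.12) and the median ratio 4.22. The median height was 6.91 in all DKO peaks and 5.97 in the DKO-only CpG-poor peaks away from starts.

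Of the 1183, 451 (38.1%, 35.4 to 40.9%) were lower than 6, compared with 20.97% of the shared peaks, a difference of 17.2 percentage points (12.8 to 21.3). The share was 32.1% in all DKO peaks and 51.0% in the DKO-only CpG-poor peaks away from starts (difference -12.9 points, -15.9 to -9.78). At the upper end, 132 (11.2%) reached 10, compared with 25.8% of the shared peaks. In the ranking of the DKO list by q-value, 30 (2.54%) stood among the best 10%, compared with 10.2% of the shared peaks. Height is tied to the selection, since low DKO peaks lacked a WT peak more often in both classes away from listed starts: the share without one fell from 77.6% (74.1 to 80.8%) at heights of 5 to 6 to 45.2% (39.6 to 50.9%) at 10 or more in CpG-rich peaks away from listed starts. At matched heights it was above that of CpG-poor peaks, which fell from 67.1% (65.7 to 68.5%) to 25.9% (23.8 to 28.1%). The lists hold no WT height at a position without a WT peak, so the WT signal at these regions was not analysed here.

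**Figure D1:**
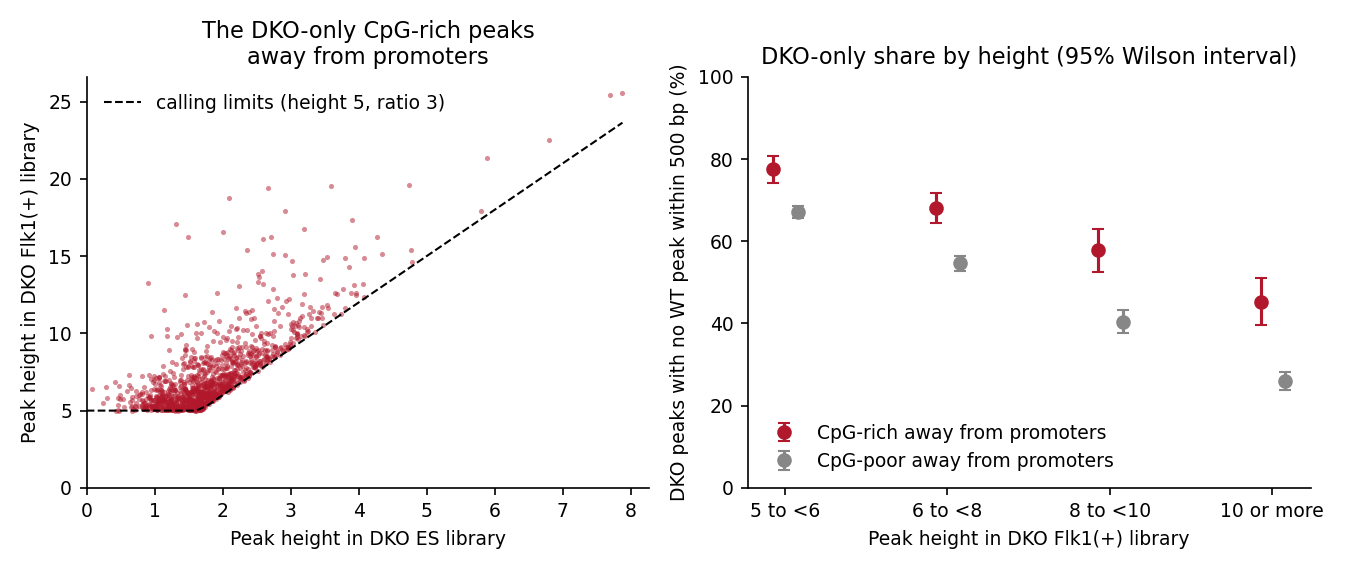
Left, the height of each of the 1183 peaks in the DKO Flk1(+) library (vertical axis) against that in the DKO ES library (horizontal axis), with the calling limits of height 5 and ratio 3 dashed. Right, the percentage of DKO peaks away from listed starts with no WT peak within 500 bp, by height, with 95% Wilson intervals; most of the peaks crowd along the limits, and the share falls from 77.6% to 45.2% in CpG-rich peaks and from 67.1% to 25.9% in CpG-poor peaks.

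By sequence these were CpG islands or close to them. The selection set a minimum number of CpGs in the deposited window. High CpG values and a high island share therefore follow largely from the selection and are a description. The median was 33 CpGs per window (quartiles 25 and 43), the median GC content 62.1% and the median ratio of observed to expected CpGs 0.711, compared with 32 CpGs, 61.5% and 0.721 in the shared peaks. With an island taken as 200-bp windows of at least 50% GC and a ratio of at least 0.6, the position of 875 regions (74.0%, 71.4 to 76.4%) lay in an island, and the median island length was 594 bp. The share in an island was 77.7% in the shared peaks, 83.8% in DKO-only CpG-rich promoter peaks and 44.4% in all DKO peaks. The shared and promoter peaks met the same CpG minimum, whereas all DKO peaks were taken without it. An island of any length that covered no GENCODE start lay at 606 regions (51.2%, 48.4 to 54.1%), and one of at least 500 bp at 313 (26.5%). The difference from the shared peaks in start-free islands was -0.0646 points (-4.91 to 4.78), too small to separate from counting error.

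CpG density was highest within 100 bp of the peak position, at 7.52 and 7.63 CpGs per 100 bp on either side, and fell to 1.95 and 1.87 at the ends of the 2-kb flanks. The rise at the centre follows from the selection, which counted CpGs in that window, and is a description. Of the windows, 729 (61.6%) had no repeat base and 36 (3.04%) were more than 50% repeat. The latter share was 0.968% in the shared peaks (difference 2.08 points, 0.671 to 3.33), 0.171% in DKO-only promoter peaks (difference 2.87 points, 2.02 to 4.02) and 17.3% in the 5419 DKO-only CpG-poor peaks away from starts (difference -14.3 points, -15.6 to -12.8).

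**Figure D2:**
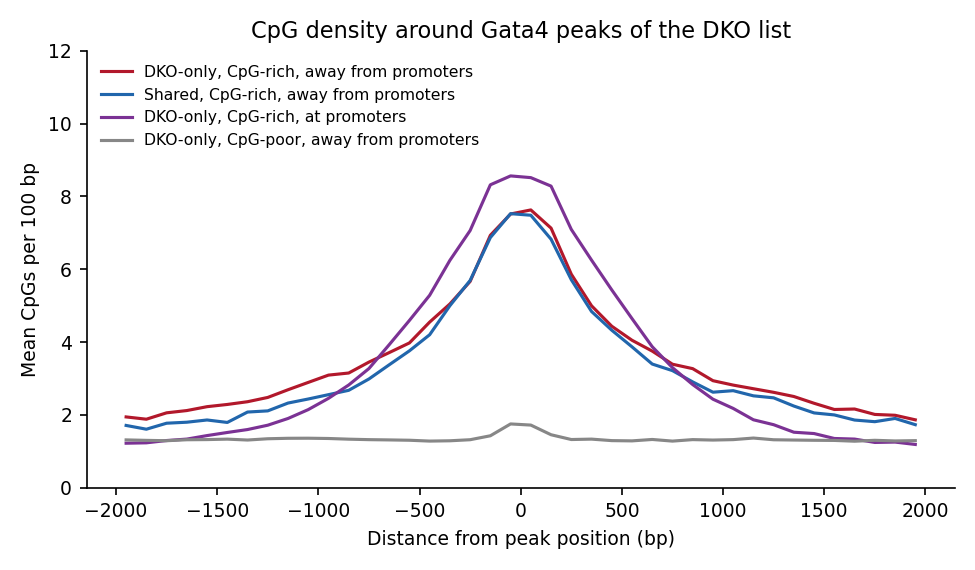
Mean number of CpGs per 100 bp (vertical axis) by distance from the peak position in bp (horizontal axis) for the 1183 peaks, the 620 shared CpG-rich peaks away from listed starts, 5277 DKO-only CpG-rich promoter peaks and 5419 DKO-only CpG-poor peaks away from starts. The 1183 peaks rise to 7.63 at the position, where the selection counted CpGs, and fall to about 1.9 at 2 kb.

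The label away from promoters holds for the gene starts in the deposited list but not for a fuller annotation. In GENCODE vM1, the mm9 annotation used here, 441 regions (37.3%, 34.6 to 40.1%) lay within 1 kb of the start of some transcript. The nearest such start belonged to a protein-coding gene at 350, a long intergenic non-coding RNA (lincRNA) at 45 and a processed transcript at 28, with the rest at miRNA, pseudogene, snRNA or snoRNA genes. Examples are the peaks 83 bp from the start of the lincRNA 5430416N02Rik, 74 bp from a start of *Jarid2*, which encodes a Polycomb cofactor, 92 bp from one of *Ephb3*, an ephrin receptor gene, and 14 bp from one of *Inpp5f*, an imprinted phosphatase gene. Only 372 regions (31.4%, 28.9 to 34.1%) were more than 5 kb from any GENCODE start, of which 254 were in no gene, 110 in a coding gene and 272 in an island. The share near a GENCODE start was 39.7% in the shared peaks, a difference of -2.40 points (-7.15 to 2.30).

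A coding exon held 223 of them (18.9%, 16.7 to 21.2%), an intron of a coding gene 348 (29.4%), a 5′ UTR 67 (5.66%), a 3′ UTR 21 (1.78%) and a non-coding gene 59 (4.99%), and 455 (38.5%) lay in no annotated gene. In the shared peaks coding exons held 7.90% (difference 10.9 points, 7.75 to 13.9) and intergenic DNA 50.3% (difference -11.9 points, -16.6 to -7.04). DKO-only CpG-rich promoter peaks were in a coding exon in 16.1% (difference 2.80 points, 0.443 to 5.32), WT-only CpG-rich peaks away from starts in 13.7% (10.4 to 17.7%), all DKO peaks in 7.92% and DKO-only CpG-poor peaks away from starts in 2.68%. The 223 exonic peaks fell in 202 genes, of which 60 peaks lay within 1 kb of a start of a coding gene, 114 between 1 and 5 kb and 49 farther away. Between 1001 and 5000 bp of a coding start, 235 regions lay downstream and 132 upstream of it.

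**Figure D3:**
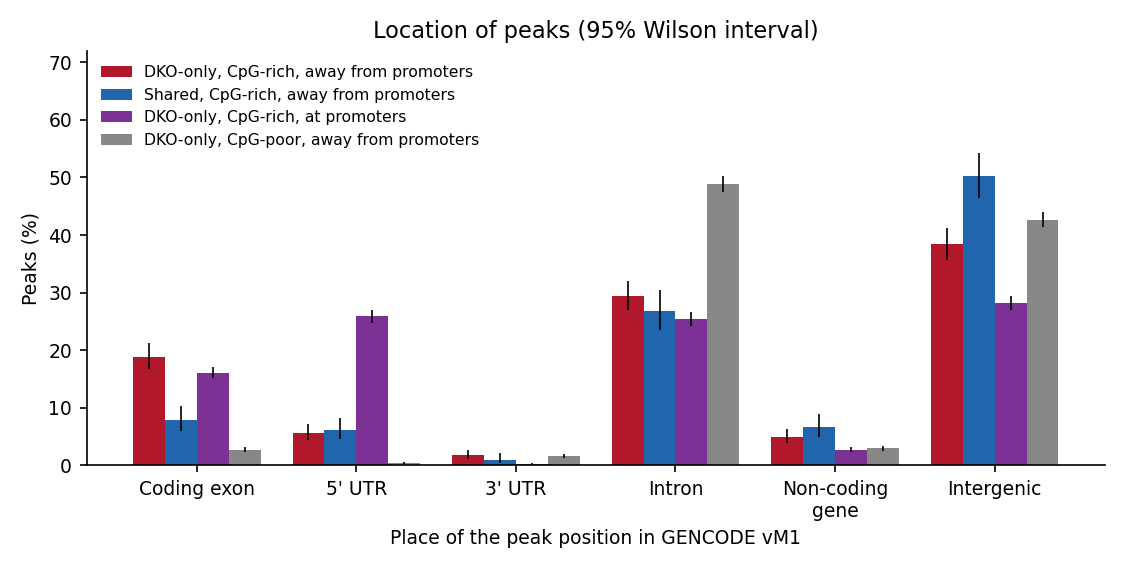
Percentage of peaks (vertical axis) by the place of the peak position in GENCODE vM1 (horizontal axis), with 95% Wilson intervals, in the 4 classes of DKO peaks named in the legend. Coding exons hold 18.9% of the 1183 peaks and 7.90% of the shared CpG-rich peaks, and intergenic DNA 38.5% and 50.3%.

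Long islands more than 5 kb from a start illustrate these places. A 2453-bp island in a coding exon of *Cilp2*, a cartilage matrix gene, had a peak of height 6.99. Islands of 1859 bp in *Prdm13*, a zinc-finger transcription factor gene, and of 1646 bp in *Otud7a*, a deubiquitinase gene, had exonic peaks of height 5.20 and 7.26. Upstream of *Hdac4*, a histone deacetylase gene, a 1759-bp island carried a pair of peaks of height 7.72 and 10.0 that lay 32667 and 32390 bp from the start. A 1879-bp island in an intron of *Agap1* had a peak of height 6.36. The ES heights at these 6 peaks ranged from 1.38 to 2.64.

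WGATAA was about as frequent in these regions as their base composition gives. It was present in 177 windows (15.0%, 13.04 to 17.1%), where independent draws of the same bases would give 15.5%. All DKO peaks held it in 38.1%, the shared CpG-rich peaks away from starts in 22.9%, DKO-only CpG-rich promoter peaks in 10.5% and DKO-only CpG-poor peaks away from starts in 52.9%. Base composition would give 17.0, 13.3 and 38.6% in the last 3 classes. The difference from the shared peaks was -7.94 points (-11.9 to -4.14), and that from the DKO-only promoter peaks 4.48 points (2.38 to 6.77). Windows 2 kb to either side, with a median of 6 CpGs, held it in 34.3%, so the motif was scarcer at the peaks than around them. This was shared by the other CpG-rich classes, whose flanks held it in 34.0% (shared peaks) and 38.9% (DKO-only promoter peaks). The flanks of the DKO-only CpG-poor peaks held it in 37.9%, below the peaks themselves.

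The difference from the shared peaks was also seen at matched CpG content, beyond counting error only at the low end of the range. At 20 to 29 CpGs, 109 of 471 regions (23.1%, 19.6 to 27.2%) and 35.6% of the shared peaks had a WGATAA, a difference of -12.5 points (-19.4 to -5.63). At 30 to 39, 40 to 49 and 50 or more CpGs the regions had it in 10.6, 12.7 and 3.55%, and the shared peaks in 14.3, 15.8 and 8.75%. These differences had the same sign but rested on 175, 101 and 80 shared peaks. They were -3.68 (-10.3 to 2.14), -3.17 (-12.3 to 4.62) and -5.20 points (-13.6 to 0.767), with intervals that included 0. The best-ranked 295 regions held it in 18.0% (14.01 to 22.7%) and the worst-ranked 296 in 16.2% (12.5 to 20.8%), and the intergenic regions in 18.0% (14.8 to 21.8%) compared with 9.87% (6.61 to 14.5%) of those in coding exons. The 177 regions with the motif had a median height of 6.83 and a median of 26 CpGs, compared with 6.41 and 34 in the 1006 without it.

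The WGATAA copies showed little preference for the peak position. Of the 217 copies in the regions, 53 (24.4%, 19.2 to 30.6%) lay in the central 100 bp, where even placement gives 20.2%. In the shared peaks this share was 35.6% and in CpG-poor DKO-only peaks 42.4%, so the rise at the position seen there was not detected at this number of copies. A WGATAA copy in the central 100 bp was found in 46 regions (3.89%), compared with 9.03% of the shared peaks, a difference of -5.14 points (-7.84 to -2.77). CGATAA, a related motif that holds a CpG, had 17 of its 46 copies in the regions (37.0%, 24.5 to 51.4%) in the central 100 bp. Its central share was 23.3% (11.8 to 40.9%) in the shared peaks, 37.8% in CpG-poor DKO-only peaks and 34.4% in all DKO peaks.

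**Figure D4:**
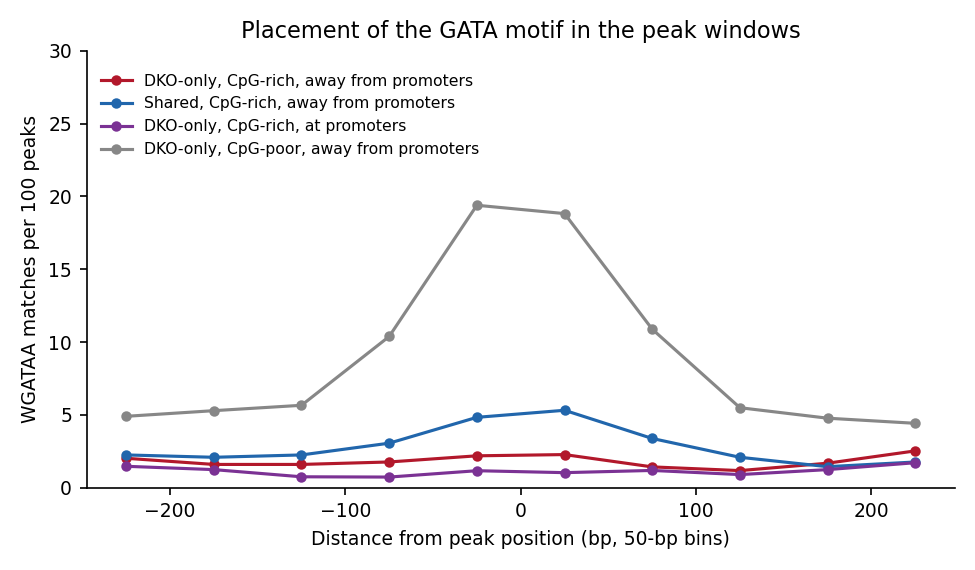
Number of WGATAA copies per 100 peaks (vertical axis) in 50-bp bins of distance from the peak position (horizontal axis) in the 4 classes of DKO peaks. CpG-poor DKO-only peaks rise to 19.4 beside the position and shared CpG-rich peaks to 5.32, whereas the 1183 peaks stay between 1.18 and 2.54.

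The windows were searched for 15 other motifs on both strands, without a correction for their number. GGGCGG, the GC box bound by Sp1, was in 68.3%, compared with 79.3% of DKO-only promoter peaks, 74.5% of the shared peaks and 47.7% of all DKO peaks. The ETS motif CCGGAAG, common in promoters, was in 10.4%, compared with 23.0% of DKO-only promoter peaks (difference -12.6 points, -14.6 to -10.4) and 13.9% of all DKO peaks. The cyclic AMP response element TGACGTCA was in 1.69%, compared with 5.65% of the shared peaks (difference -3.95 points, -6.14 to -2.15). The shared peaks had the highest share, with 3.30% in DKO-only promoter peaks, 2.33% in WT-only CpG-rich peaks away from starts and 2.19% in all DKO peaks. CACGTG, the E-box of Myc, Max and Usf factors, was in 17.8%, compared with 14.1% of DKO-only promoter peaks (difference 3.67 points, 1.39 to 6.13), 15.2% of the shared peaks and 12.1% of all DKO peaks. Of its 245 copies, 74 (30.2%, 24.8 to 36.2%) were in the central 100 bp, compared with 29.6% in the shared peaks, 30.1% in the DKO-only CpG-poor peaks and 26.9% in all DKO peaks. The glucocorticoid response element was in 0 of 1183 windows, which by a limit of 3 counts allows a share of up to 0.254%. It was in only 8 of all 22733 DKO peaks (0.0352%), a share below that limit, so its absence does not set these regions apart.

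Of the 12 best-ranked regions, 7 were more than 5 kb from any GENCODE start. The best ranked, at rank 204, lay 18563 bp downstream of the start of *Nlgn3*, a synaptic adhesion gene, on chromosome X, with a height of 17.1 against 1.32 in ES cells and 31.5% of its window in repeats. The peak 8286 bp upstream of *Ccdc9*, at rank 246, had a height of 16.2 against 1.49, and the *Txndc5* peak printed above 13.3 against 0.906. In an intron of *Nfib*, a nuclear factor I gene, a peak reached 18.8 against 2.10 with 37 CpGs. The peak of height 19.4 near nothing annotated, 354241 bp from the nearest start, had 56 CpGs and a 604-bp island, and no WT peak within 255198 bp. Others of the 12 best were a pair upstream of *Chd2* (16.5 and 10.0), *Klk15* (10.6), a peak upstream of *Eef2*, which encodes a translation elongation factor (10.6), a peak 949 bp from the start of Gm7461 (10.3), one upstream of *Pou2f1*, which encodes the Oct1 factor (11.5), and that of the lincRNA 5430416N02Rik (12.5).

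The most CpGs, 77 in the window, were found in an exon of *Arhgap23* and in the 5′ UTR of *Lcor*, a nuclear receptor corepressor gene, whose window was 63.3% repeat. *Hmgb1*, a chromatin protein gene, had 76, the region near *Zfp238* 74 and *Gpr153* 72. Heights at these 5 were 6.11 to 8.51 and none had a WGATAA. All lay near a GENCODE start, that of 4933428G20Rik at 207 bp for the *Arhgap23* peak. The nearest start was at 120 bp for *Lcor*, 258 bp for *Hmgb1*, 966 bp for *Gpr153* and 1245 bp for the region near *Zfp238*. The regions with the most WGATAA copies after *Mpdz* and *Gata2* had 3 each: *Nceh1*, with a height of 14.7, an intergenic peak 525745 bp from *Med13l* (6.31) and one 89 bp upstream of *Zfp141* (6.83). The *Gata2* peak, with 38 CpGs and 4 copies, had a height of 7.37 against 2.23 in ES cells, and a WT peak of height 21.1 lay 970 bp from it.

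The genes of the regions were taken from the deposited list, which names a RefSeq gene within 5 kb of 787 of them (792 names in all) and none at 396. Homeobox genes were named at 18 regions (1.52%), compared with 0.519% of all DKO peaks and 1.77% of the shared peaks. By best rank, *Lhx6* (height 6.82), *Pax2* (9.57) and *Six3* (5.87), patterning genes, had peaks in a coding exon, the 3′ UTR and a coding exon, and *Tshz3* (5.86), a teashirt zinc-finger gene, 2360 bp upstream. Other developmental transcription factors were named at 56 (4.73%), compared with 1.51% of all DKO peaks and 3.55% of the shared peaks. *Klf15* (9.82), *Nfic* (8.89) and *Hand2* (8.44), the last a heart and limb factor, each held 1 WGATAA, and *Neurog2* (7.85) none. Both lists were thus more often named than over all DKO peaks and at shares close to those of the shared CpG-rich peaks.

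Protocadherins and cadherins, adhesion proteins whose genes are often CpG-rich, were named at 12 regions (1.01%), compared with 0.273% of all DKO peaks and 0.806% of the shared peaks. A region can name several genes, and these 12 named 32 genes. The best ranked were near *Fat4* (7.25), *Pcdh1* (12.1), *Dchs1* (6.03) and *Pcdh8* (9.10), the last in a 2005-bp island. Secreted signals and receptors were named at 22 (1.86% against 1.07%, and 1.94% of the shared peaks), led by *Gdf15* (17.4), a stress-induced growth factor gene, *Insr* (7.19), the insulin receptor gene, *Ephb3* (7.001) and *Igf1r* (5.97), the gene of the insulin-like growth factor receptor. Chromatin and methylation regulators were named at 12 (1.01% against 0.704%, and 1.29% of the shared peaks), led by *Kdm6b* (7.03), a histone demethylase gene, *Phc1* (10.5), *Rere* (11.3) and *Jarid2* (7.12). These 12 regions named only 6 genes, since several lay at the same gene.

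Endoderm genes were named at 4 regions (0.338%), compared with 0.295% of all DKO peaks and 0% of the shared peaks. These were at *Gata6* (6.42), *Amn* (5.34), a visceral endoderm gene, and *Sox17* (7.11). Heart and smooth muscle genes were named at 5 (0.423% against 0.255%, and 0% of the shared peaks). These were at *Hand2*, *Mybpc3* (8.78), which encodes a sarcomere protein, *Mef2c* (5.10) and *Smarcd3* (6.005). Imprinted genes were named at 2 (*Peg10*, 6.42, and *Inpp5f*, 9.44) and germline genes at 1 (*Brdt*, 6.45). Imprinted genes were thus at 0.169% of the regions, compared with 0.370% of all DKO peaks and 0.484% of the shared peaks. Germline genes were at 0.0845%, compared with 0.0528% of all DKO peaks and 0% of the shared peaks. Genes that responded more strongly to Gata4 in DKO than in WT cells were a list chosen on expression in the same cell system. They were named at 2 regions, *Mybpc3* and *Sox17*, and neither window held a WGATAA. That was 0.169% of the regions, compared with 0.396% of all DKO peaks and 0.161% of the shared peaks. The *Mybpc3* peak lay 2894 bp upstream of its start, in an exon of the neighbour *Sfpi1*, and the *Sox17* peak 2984 bp from the listed start. These counts are small and overlap between lists.

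Counted as 1 locus when within 1000 bp of each other, the 1183 formed 1010 loci, of which 151 held 2 or more (324 regions) and the largest held 5. The 5 lay at Gm7461 on chromosome 8, with heights of 10.3 to 16.3, 32 to 41 CpGs and no WGATAA. Within 10 kb there were 959 loci, and 29 held 3 or more. Beside Gm7461, those with 4 were *Ptma*, *Kdm6b*, *Cdkn1b*, *Junb* and *Mid1*. The 4 at *Kdm6b* lay in an intron between 3147 and 2538 bp downstream of a start, with heights of 7.03, 8.48, 9.44 and 10.5, and WT peaks stood 819 to 1051 bp away. Those at *Junb*, an AP-1 factor gene, had heights of 5.85 to 16.2, and the 4 near *Cdkn1b*, a cell cycle inhibitor gene, of 5.39 to 10.0 with no WT peak within 47265 bp.

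The remaining loci, with 3 each, were at *Hand2*, *Cbx8*, *Krt10*, *Vapb*, *Rai1*, *Aurkb*, *Ssh3*, *Kazald1*, *Schip1*, *Eef2k*, *Ssbp4*, *Ier2*, *Fam65a*, *Egln1*, *Arrdc3*, *Srek1*, *Prkcd*, *Cspp1*, *Lonrf2*, D930049A15Rik beside *Zmiz1*, Gm11444 near *Tbx2*, Gm10775 and Gm13011. All 3 windows at *Krt10*, a keratin gene, held a WGATAA, with the windows overlapping each other, and the WT peak nearest to Gm10775 was 808326 bp away. Another DKO peak of any kind lay within 1000 bp of 455 regions (38.5%), fewer than the 57.4% of the shared peaks (difference -19.0 points, -23.7 to -14.1) and close to the 39.3% of all DKO peaks. A region could have neighbours of several kinds: 324 had another of the 1183, 77 a DKO-only CpG-poor peak, 56 a DKO-only promoter peak, 44 a shared peak away from starts and 15 a shared promoter peak, and 421 had no other DKO peak within 10 kb.

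Chromosome 8 held 139 of the regions (11.7%, 10.0 to 13.7%), compared with 9.27% of all DKO peaks, 6.69% of WT peaks and 7.42% of the shared peaks. It also held 8.58% of DKO-only CpG-rich promoter peaks and 13.2% of the DKO-only CpG-poor peaks away from starts. The difference from the latter was -1.48 points (-3.43 to 0.665), so the raised share was not particular to these regions. Of the CpG-rich DKO peaks away from listed starts on chromosome 8, 75.1% had no WT peak, compared with 64.5% on the other chromosomes. Among CpG-rich WT peaks away from listed starts, 8 of 48 on chromosome 8 lacked a DKO peak. On the other chromosomes 336 of 827 did, and over all WT peaks 54.4%. The regions on chromosome 8 had a median height of 7.14, and the others 6.40. The median ES height at listed peaks was 1.98 on chromosome 8 in the WT list and 1.66 elsewhere, while in the DKO list these were 1.62 and 1.58, and the part of this in the result was not tested. Without chromosome 8 there were 1044 regions with a median height of 6.40, of which 15.2% had a WGATAA. The lowest share without a WT peak among chromosomes with over 100 such peaks was 51.3%, on chromosome 11, and chromosome X held 12 regions.

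**Figure D5:**
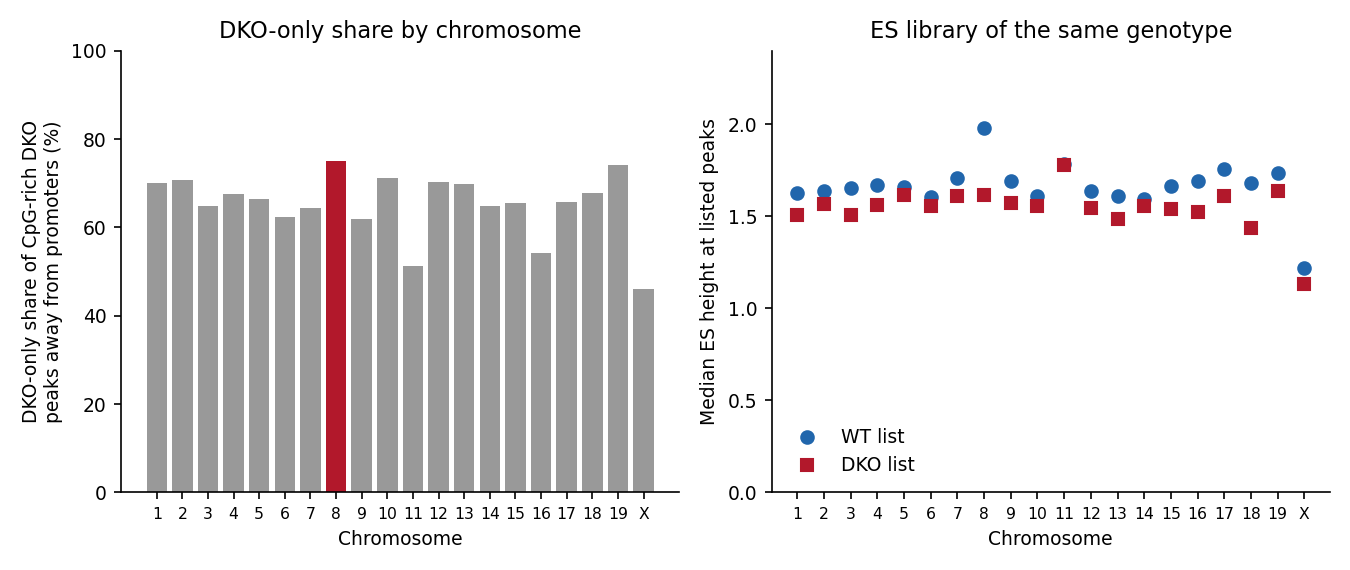
Left, percentage of CpG-rich DKO peaks away from listed starts that had no WT peak within 500 bp (vertical axis), by chromosome (horizontal axis). Right, median height in the ES library of the same genotype at the peaks of each list. Chromosome 8 has 75.1% on the left and, on the right, 1.98 for WT against 1.62 for DKO.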

How the data were processed

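Peaks came from 2 deposited lists, DKO Flk1(+) called over DKO ES and WT Flk1(+) called over WT ES, with 1 library per condition. Reads were mapped to mm9, CASAVA 1.8.1 and cutadapt are named in the submitters' processing notes, and DNAnexus tools were used by the authors for peak calling. The aligner, any scaling for depth and what was done with duplicate reads are not given in the sources used here. The lists give the authors' signal, a height of the read density profile in the Flk1(+) and in the ES library, with no read numbers. The study's methods give more mapped reads for DKO than for WT Flk1(+) cells and none for ES cells. The deposited ratio divides these heights, with a background under 1 taken as 1. Ranking used the deposited rank, a score with 1 the highest that follows the −log10 q-value of the authors. Position and distances to RefSeq genes are also the authors'.

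The deposited windows, 250 bp to either side, of both lists (22733 and 20410) equalled the mm9 reference. CpGs and motifs were counted in them on both strands. Gene places came from GENCODE vM1 and repeats from the lower-case bases of the reference. The base-composition share treats bases as independent draws. No test was made, since each condition had 1 library. The steps were tested on simulated data. Regions, gene lists and comparisons were chosen with earlier results of these data known. Named were the 12 best-ranked regions, the 5 with most CpGs, the 5 with most WGATAA copies, those at the study's hyper-responsive genes, up to 4 genes a list by rank and the loci of 3 or more. Long islands far from starts and the printed sequences were picked after their values were seen. Alternatives were other distances, CpG limits, motifs and windows, the better-ranked peaks, 1 peak per locus and, added after seeing the data, leaving out chromosome 8 or all peaks near GENCODE starts. Python 3.11.15, NumPy 2.4.6, pandas 2.3.3, SciPy 1.17.1, pysam 0.24.0 and Matplotlib 3.10.9 were used.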

Additional observations from a re-analysis of the deposited data

How the results depend on the processing

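No paired analysis was possible because each condition had 1 library. Of 26 alternatives, 17 left their result within its counting interval or, for the number of regions, within 1.5 times, and 9 moved it. The number of regions was 712 with a limit of 30 CpGs and 742 when peaks within 1000 bp of a GENCODE start were left out as well. The share with a GATA motif was 26.1% for WGATAR, 6.26% in the central 200 bp and 9.55% at 30 CpGs. The median height was 6.63 at 30 CpGs. The share inside a coding gene was 62.2% at 30 CpGs, 50.1% with listed starts within 2000 bp left out and 48.4% without peaks near GENCODE starts. Wider or narrower motifs, windows and limits change these shares by their construction. The missing replicates and the unequal depth of the Flk1(+) libraries limit every comparison between the lists.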
